A study of Mus musculus with 5 samples.

Results

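The matrix metalloproteinases are secreted or membrane-bound enzymes that cut collagens, elastin, laminins and other proteins of the extracellular matrix, and the Timp proteins are their tissue inhibitors. The genes described here are 7 metalloproteinases (Mmp2, Mmp7, Mmp9, Mmp12, Mmp13, Mmp14 and Mmp19) and 3 inhibitors (Timp1, Timp2 and Timp3). They were chosen by name, as the rows of the array table whose gene symbol is exactly 1 of these 10, and all 10 were found among 19938 genes measured. Each had 1 probe set that names that gene alone, so no choice between probe sets was needed. The same array measured 16 other genes of these families.

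The data are 5 Affymetrix gene arrays of whole liver tissue from male mice about 10 months old, each giving a log2 expression value for every probe set. The 2 control samples were normal liver of the genotype Hdac3FL/+; AlbCre+, in which a floxed Hdac3 allele is paired with a wild-type allele. The 3 other samples were liver tumours of the genotype Hdac3FL/-; AlbCre+, in which the floxed allele is paired with a null allele. Hdac3 encodes a histone deacetylase. Both groups carry Cre recombinase under the albumin promoter, which is active in hepatocytes and their precursors, so cells of other lineages, such as macrophages and endothelium, are not its target. Control hepatocytes in which Cre has acted are left with the wild-type allele alone. By these genotypes, cells in which Cre has not acted hold a floxed and a null allele in the tumours. In the controls such cells hold a floxed and a wild-type allele. Every tumour was null and every control was normal tissue, so genotype and tumour state cannot be told apart. The labels call the arrays biological replicates and say no more on their source.

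Metalloproteinases are made as inactive precursors. They are switched on when their prodomain is cut off, by plasmin, by furin or by another metalloproteinase, and switched off when a Timp protein binds the active site. Mmp14 sits in the cell membrane and, together with Timp2, activates the Mmp2 precursor. In liver, stellate cells, fibroblasts, endothelial cells and macrophages are known sources of several of these proteins. Transcript levels say nothing of how much of an enzyme is active.

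Mmp12 and Mmp13 had the largest differences of the 10 genes and lie side by side on mouse chromosome 9, at 1 end of a cluster of 10 metalloproteinase genes that has Mmp7 at its other end. For these 3 genes the 250 bases before a RefSeq transcription start (build GRCm38.p6) are shown, because the first 2 passed the test for a rise and Mmp7, in the same cluster, did not; whether their changes differ was not tested. Capitals mark a match to TGANTCA, the binding motif of AP-1 (dimers of Jun and Fos family proteins), which reads the same on both strands.
Mmp13 (chr9:7272264-7272513, + strand): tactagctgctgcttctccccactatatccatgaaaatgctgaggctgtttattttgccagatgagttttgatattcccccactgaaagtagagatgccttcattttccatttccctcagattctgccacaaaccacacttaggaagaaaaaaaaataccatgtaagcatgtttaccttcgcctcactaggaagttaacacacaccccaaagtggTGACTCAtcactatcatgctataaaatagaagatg
Mmp12 (chr9:7344147-7344396, + strand): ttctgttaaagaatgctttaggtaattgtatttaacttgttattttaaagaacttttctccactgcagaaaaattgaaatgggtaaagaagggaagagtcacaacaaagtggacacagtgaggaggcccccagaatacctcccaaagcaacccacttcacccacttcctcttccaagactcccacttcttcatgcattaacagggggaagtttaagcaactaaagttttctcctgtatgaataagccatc
Mmp7 (chr9:7691840-7692089, + strand): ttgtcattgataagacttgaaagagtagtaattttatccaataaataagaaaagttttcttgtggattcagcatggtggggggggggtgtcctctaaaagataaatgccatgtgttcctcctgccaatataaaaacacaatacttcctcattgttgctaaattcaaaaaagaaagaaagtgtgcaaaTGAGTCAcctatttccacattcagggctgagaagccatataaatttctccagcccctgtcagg

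The match in the Mmp13 sequence spans the bases 35 to 29 before the start, and that in the Mmp7 sequence the bases 63 to 57. The Mmp12 sequence shown holds none, while a further Mmp12 start listed in the same table (chr9:7347124-7347373, + strand) has a match 44 to 38 bases before it. RefSeq promoters were listed for 7 of the 10 genes, with 9 sequences in all, and 3 of the 7 held the motif in at least 1 of them. Of all genes in that table, 7.82% did so. The motif AGGAAG of the PEA3 group of Ets factors, searched on both strands, was found for 6 of the 7 genes (32.3% of all genes), and the TATA box letters TATAAA for 2, Mmp7 and Mmp13 (14.3% of all genes). None of these matches overlapped a match to another motif in the 3 sequences shown. Within the cluster, 8 of 10 genes held the AP-1 motif, 2 of which rose in the tumours and 6 of which did not pass the test. Of those 6, Mmp1a, Mmp1b and Mmp3 had both group means under the lower quartile of the arrays. There the array does not show that a signal exceeds background. Outside the cluster, 0 of 11 family genes with a listed promoter held the AP-1 motif. A match is a description of the letters and not of binding.

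Of the 10 genes, 6 rose, 1 fell and 3 did not pass the test. Mmp12, Mmp13, Mmp14, Timp1, Timp2 and Timp3 were higher in every tumour than in both controls, Mmp19 was lower in every tumour, and Mmp2, Mmp7 and Mmp9 overlapped with the controls. Over all genes measured, 10.6% passed a limma adjusted p of 0.05, made up of 5.6% that rose and 4.96% that fell, while 44.2% had tumours all above or all below the controls. The median difference of the 10 genes was 0.96 on the log2 scale, against −0.02 over all genes. These genes were picked with earlier results of these arrays known, so the count is a description and not a test of the family. The calls rest on few controls: with either control left out, most calls among the 10 genes were lost, as were most over all genes. The median difference of the 10 genes was then 0.89 (without control 1) and 1.03 (without control 2). Without tumour 3, 8 of the 10 genes were called, and 2719 of 19938 over all genes, against 2106 with all arrays.

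**Figure D1:**
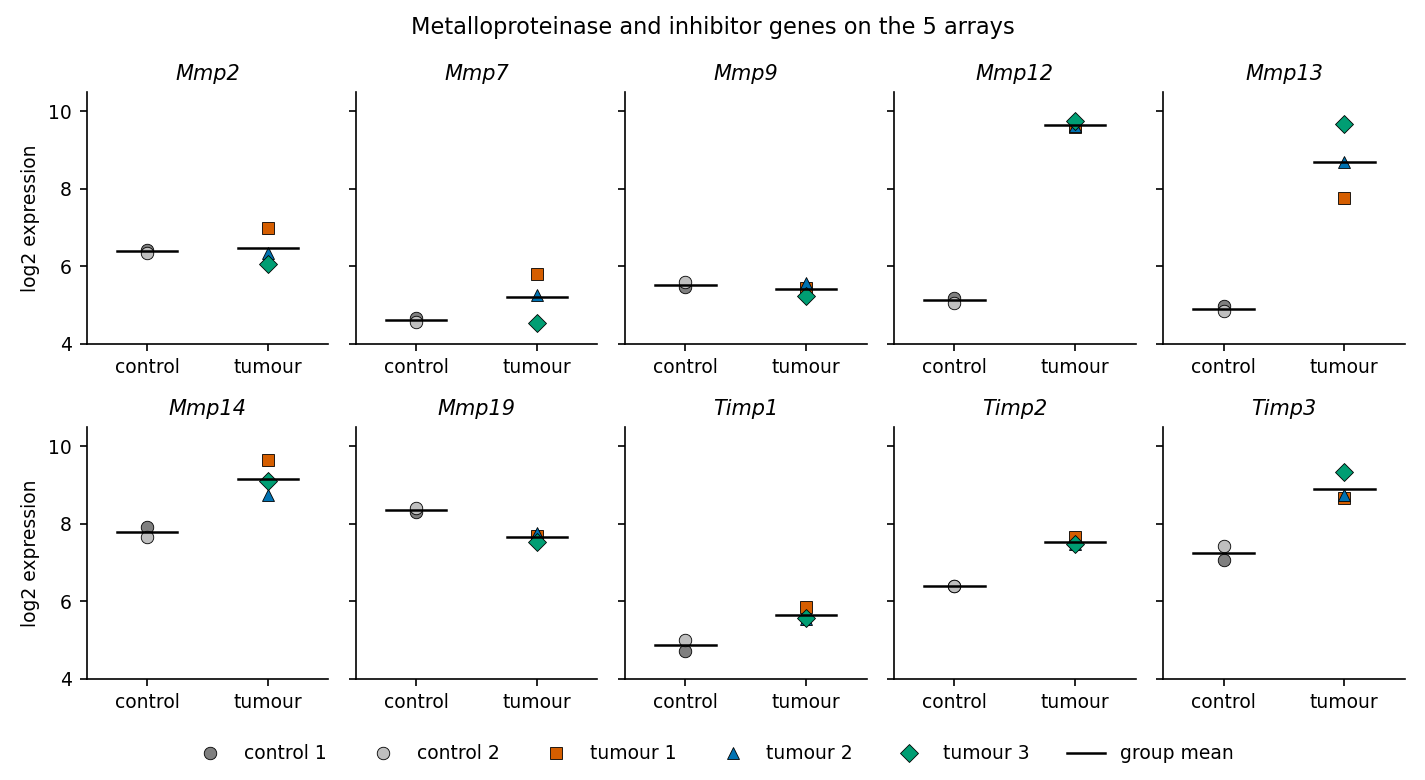
Log2 expression of the 10 genes (vertical axis) in 2 control livers and 3 tumours, 1 panel a gene, with a point for each array and a black line at each group mean. The Mmp12 tumours lie within 0.15 of each other far above the controls, the Mmp13 tumours spread over 1.91, and for Mmp2, Mmp7 and Mmp9 the groups overlap.

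Mmp12 encodes macrophage metalloelastase, an enzyme that cuts elastin and is known from macrophages. It stood at 5.19 in control 1, 5.06 in control 2, 9.60 in tumour 1, 9.63 in tumour 2 and 9.75 in tumour 3 (log2 expression). The groups were far apart, and the tumours differed little among themselves. The difference of 4.54 (95% confidence interval 4.23 to 4.84, n = 2 and 3), or 23.2-fold, had a limma adjusted p of 0.000144. Among all genes it was the 12th largest rise. The call held in all 11 alternative analyses, with adjusted p between 0.000112 and 0.0131, and it was the single call among the 10 genes that held without either control.

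Mmp13 encodes collagenase 3, the main enzyme of rodents that cuts fibrillar collagen. Against control levels of 4.97 and 4.84 (log2), it reached 7.75 in tumour 1, 8.69 in tumour 2 and 9.67 in tumour 3. All tumours were high, but tumour 3 was highest and tumour 1 lowest, with a range of 1.91 that was wider than that of 98.2% of genes. The difference was 3.80 (95% confidence interval 2.53 to 5.07; limma adjusted p = 0.0114), or 13.9-fold. The adjusted p was 0.124 without control 1 and 0.136 without control 2, at differences of 3.86 and 3.74. The SD over the 3 tumours was 0.96 for Mmp13 and 0.08 for its neighbour Mmp12.

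Mmp14 encodes a membrane-anchored collagenase. Its control levels were 7.92 and 7.67 (log2), and the tumours had 9.65, 8.75 and 9.10, in the order of their numbers. The groups did not overlap, and tumour 1 was highest. The difference was 1.37 (95% confidence interval 0.70 to 2.04; limma adjusted p = 0.0323), or 2.59-fold, and its adjusted p was 0.186 without control 1 and 0.250 without control 2.

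Mmp2, the gelatinase whose precursor Mmp14 activates, had control levels of 6.42 and 6.36 (log2), against 6.98, 6.35 and 6.06 in tumours 1 to 3. Tumour 1 lay above both controls and the other tumours below both. The difference was 0.07 (95% confidence interval −0.59 to 0.74; limma adjusted p = 0.913), an interval that still holds rises of up to 0.74. Its sign turned without tumour 1, at −0.18. Mmp9, the other gelatinase, had control levels of 5.47 and 5.58, against 5.45, 5.57 and 5.24 in tumours 1 to 3. Tumours 1 and 3 lay below both controls and tumour 2 between them, with a difference of −0.11 (95% confidence interval −0.47 to 0.25; limma adjusted p = 0.728).

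Mmp7, or matrilysin, a small enzyme made by epithelial cells, had control levels of 4.67 and 4.56 (log2) and reached 5.79 in tumour 1, 5.26 in tumour 2 and 4.54 in tumour 3. Tumours 1 and 2 were above both controls and tumour 3 was just below both. The difference of 0.58 (95% confidence interval −0.28 to 1.44) did not pass (limma adjusted p = 0.385). Without tumour 3 it was 0.91 and passed (adjusted p = 0.0386).

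Mmp19, a secreted metalloproteinase, was the single gene of the 10 that fell. Control levels of 8.31 and 8.41 (log2) stood against 7.69, 7.78 and 7.52 in tumours 1 to 3. The tumours were all lower and lay close together. It fell by 0.70 on the log2 scale (95% confidence interval −1.03 to −0.37; limma adjusted p = 0.0293). Leaving out control 1, control 2, tumour 1 or tumour 2 ended the call (adjusted p = 0.180, 0.229, 0.0551 and 0.0569), with differences between −0.75 and −0.65.

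All 3 inhibitors rose. Timp3, which binds to the matrix and also inhibits enzymes of the Adam family, had control levels of 7.07 and 7.44 (log2), against 8.66, 8.74 and 9.34 in tumours 1 to 3. Tumour 3 was the highest, and the groups did not overlap. The difference was 1.66 (95% confidence interval 1.05 to 2.26; limma adjusted p = 0.0145), or 3.15-fold.

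Timp2, a soluble inhibitor that also takes part in the activation of the Mmp2 precursor, had control levels of 6.41 and 6.40, against 7.65, 7.48 and 7.49 in tumours 1 to 3. Both groups were tight, the tumours spanning 0.17. The difference was 1.14 (95% confidence interval 0.84 to 1.44; limma adjusted p = 0.00577), or 2.20-fold. Timp1, a secreted inhibitor known to rise in injured and fibrotic liver, had control levels of 4.73 and 5.01, against 5.86, 5.55 and 5.56 in tumours 1 to 3. The tumours were all higher, by a difference of 0.79 (95% confidence interval 0.38 to 1.19; limma adjusted p = 0.0378), or 1.72-fold.

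The calls for the inhibitors were lost without either control. The adjusted p was then 0.152 and 0.114 for Timp3, 0.0880 and 0.0906 for Timp2 and 0.256 and 0.163 for Timp1, in the order control 1 and control 2. Timp1 also lost its call without tumour 1 (0.0634) or tumour 2 (0.0741). Against their control means, the inhibitors rose by 0.99, 1.25 and 1.40 in tumour 1, by 0.68, 1.08 and 1.48 in tumour 2 and by 0.69, 1.09 and 2.08 in tumour 3, in the order Timp1, Timp2 and Timp3. In every tumour these 3 rises were smaller than those of Mmp12 (4.47, 4.51 and 4.63) and Mmp13 (2.85, 3.78 and 4.76). This did not hold for the other metalloproteinases. Mmp14 rose by 1.86, 0.95 and 1.31, above all 3 inhibitors in tumour 1 only. Timp2 and Timp3 exceeded it in tumour 2, and Timp3 did so in tumour 3. The differences of Mmp2, Mmp7, Mmp9 and Mmp19 were below those of all 3 inhibitors. Whether the changes of different genes differed from each other was not tested.

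The 16 other measured genes of the families, all with their own probe sets, gave 0 calls by limma. Of them, 1 gene had an unadjusted p under 0.05, against 5023 of 19938 genes over all. That gene was Mmp27, with control levels of 3.48 and 4.04 (log2) against 5.15, 4.64 and 4.42 in tumours 1 to 3 (difference 0.98, limma adjusted p = 0.0785). Its control values lay under the lower quartile of their arrays, where the array does not show that a signal exceeds background. The next smallest p-values were those of Mmp16 (−0.30), Mmp17 (−0.23) and Mmp3 (0.36), with adjusted p of 0.269, 0.295 and 0.369. For 5 of the 16 (Mmp1a, Mmp1b, Mmp3, Mmp8 and Timp4) both group means lay under that quartile, which was between 4.29 and 4.35 on the 5 arrays. No mean of the 10 genes described above did.

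**Figure D2:**
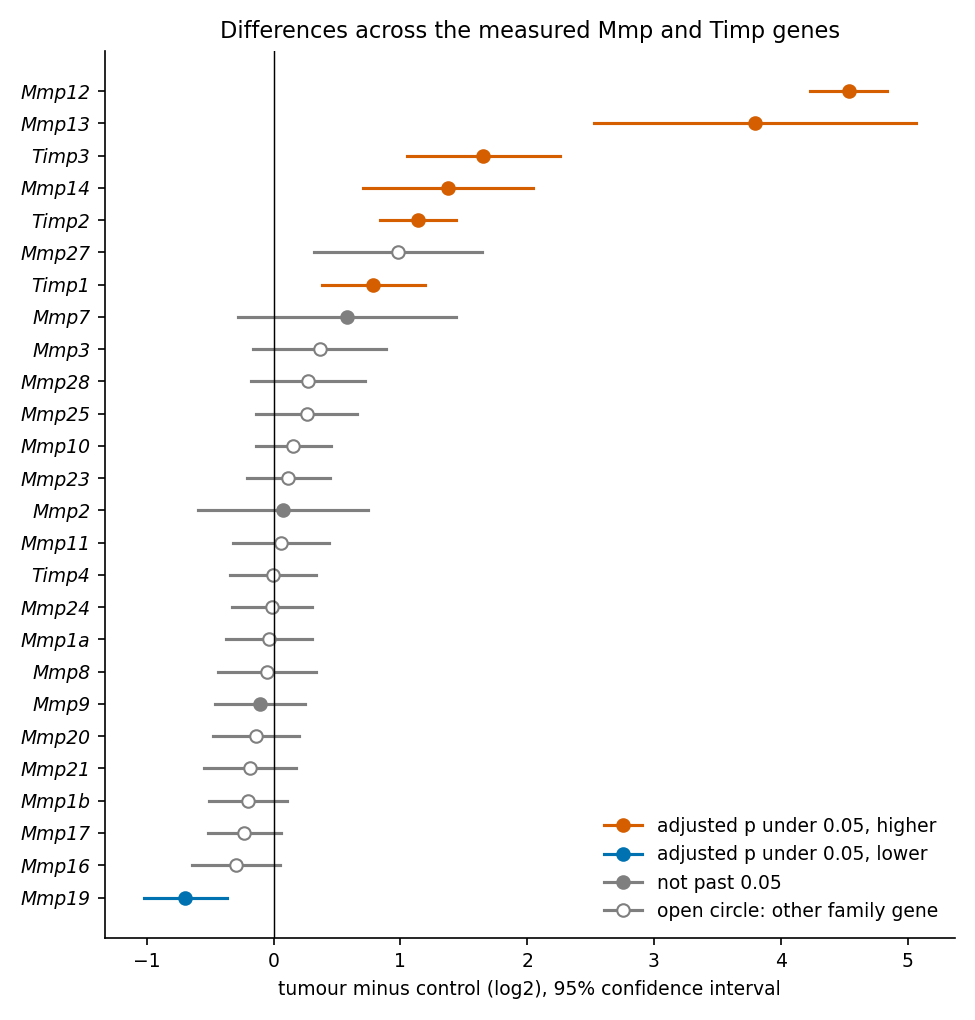
Tumour minus control difference on the log2 scale (horizontal axis) with its 95% confidence interval for the 26 measured Mmp and Timp genes, filled circles for the 10 genes described here and open circles for the 16 others. Mmp12 (4.54) and Mmp13 (3.80) stand far to the right, and Mmp19 (−0.70) is the single gene called lower.

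The cluster on chromosome 9 holds, in the gene order of GRCm38.p6, Mmp13, Mmp12, Mmp1b, Mmp3, Mmp1a, Mmp10, Mmp8, Mmp27, Mmp20 and Mmp7. Its first 2 genes rose and the other 8 did not pass the test. Next to Mmp12, Mmp1b stood between 2.83 and 2.94 in the tumours, under a control mean of 3.09 (adjusted p = 0.393). Of the 8 protein-coding genes on each side of the cluster, 3 of 16 rose and 0 fell, against 5.6% and 4.96% over all genes. These 3 are the neighbouring caspase genes of inflammation and cell stress, on the side of Mmp13 but not next to it. Casp1 rose by 2.22 (limma adjusted p = 0.00410), Casp4 by 3.19 (0.00141) and Casp12 by 4.61 (0.00123). The control means of Casp1 and Casp12, 4.23 and 3.54, lay under the lower quartile, where sizes of rises are less sure. Between the caspases and Mmp13 lie Pdgfd, Ddi1, Dync2h1 and Dcun1d5, of which none passed the test, at differences of 1.23, −0.17, −0.47 and 0.08. On the side of Mmp7, Birc2 (−0.18), Birc3 (0.31) and Yap1 (0.40) did not pass either, with adjusted p of 0.507, 0.522 and 0.228. Yap1 encodes a growth regulator of the Hippo pathway, and Birc2 and Birc3 encode inhibitors of cell death. Of the 3 caspase calls, that of Casp1 was lost without control 1 or control 2 (adjusted p = 0.0598 and 0.0794). The neighbours were chosen by position after the values of the cluster were known.

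**Figure D3:**
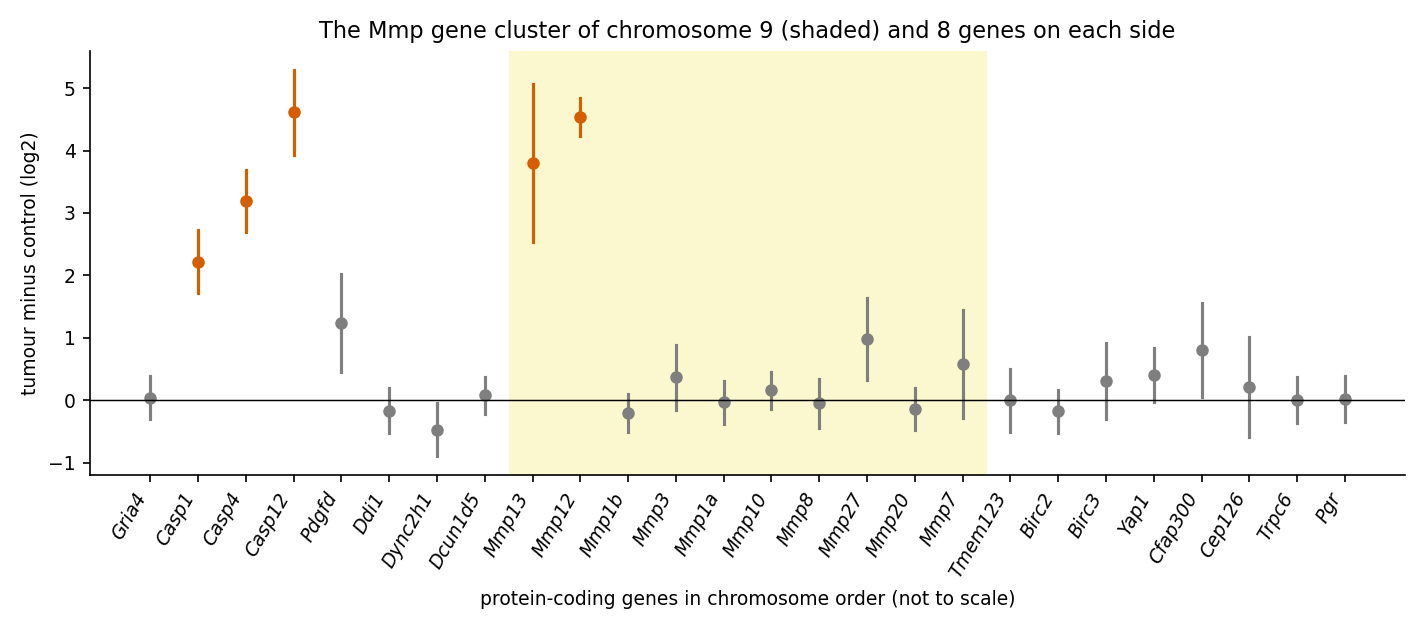
Tumour minus control difference on the log2 scale (vertical axis) with its 95% confidence interval for the 10 metalloproteinase genes of the chromosome 9 cluster (shaded) and 8 protein-coding genes on each side, in chromosome order. Mmp13 and Mmp12 at the left end of the cluster and 3 caspase genes further left are raised (orange), and every other gene drawn is grey, which means that its adjusted p was not under 0.05.

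The genes that activate or partner these enzymes were read from the same fit, from lists chosen with earlier results of these arrays known, and each list's share of called genes stands against 10.6% over all genes. Of 12 measured genes of the plasminogen system and of proprotein convertases, 2 rose and 0 fell (16.7% called). They were Anxa2, with control levels of 6.49 and 6.25 (log2) against 10.62, 10.41 and 10.40 in tumours 1 to 3 (difference 4.10, limma adjusted p = 0.000324), and S100a10 (1.52, adjusted p = 0.00413). Their proteins form a complex that binds plasminogen at the cell surface. Plau, which encodes the plasminogen activator urokinase, had a difference of 1.58 (adjusted p = 0.0530), and Plg, the gene of plasminogen itself, −0.70 (adjusted p = 0.0538); neither passed. Plat, the gene of the tissue plasminogen activator, had a larger difference that did not pass either, 3.13 (adjusted p = 0.0759), from control levels of 4.68 and 4.48 to 7.84, 6.05 and 9.24 in tumours 1 to 3. Plaur, the gene of the urokinase receptor, was at 1.62 (adjusted p = 0.0978). The list's median was 0.39. S100a10 lost its call without control 1 or control 2 (adjusted p = 0.0656 and 0.0802).

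Among 14 genes of other inhibitors and cell surface partners, 6 rose and 1 fell (50% called), with a median of 0.34. The 6 that rose encode cell surface partners and not inhibitors. Of the inhibitor genes, Reck (−0.83, limma adjusted p = 0.0943), Pzp (−0.38, 0.198) and A2m (0.16, 0.549) did not pass. Reck and Pzp were lower in every tumour than in both controls. Cd63, a tetraspanin that binds Timp1, had control levels of 5.40 and 5.02 (log2) against 8.22, 9.06 and 8.85 in tumours 1 to 3, a difference of 3.50 (limma adjusted p = 0.00266). Cd44, a hyaluronan receptor that can hold metalloproteinases at the cell surface, rose by 2.20 (0.00246), and the tetraspanin genes Cd9 and Cd151 rose by 3.26 (0.00342) and 1.33 (0.00422). The fallen gene was Tfpi2, which encodes an inhibitor of serine proteases, at −1.07 (0.0230), chosen after its value was seen. Of these, Cd9, Cd151 and Tfpi2 lost their calls without control 1 (adjusted p = 0.0602, 0.0699 and 0.162) or control 2 (0.0744, 0.0663 and 0.204), and Cd63 did so without control 2 (0.0634).

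Of 29 genes of the related Adam and Adamts proteases, 2 rose and 2 fell, with a median of 0.15. The share called, 13.8%, is near that over all genes, so the count is no result about these proteases. Adamts1 rose by 1.49 (limma adjusted p = 0.0102) and Adam10, a sheddase, by 0.80 (0.0177). Adamts13, which cuts von Willebrand factor, and Adam9 stood at −0.64 (0.0471) and −0.70 (0.0488). All 4 calls were lost without either control, at adjusted p of 0.130, 0.163, 0.281 and 0.271 at the highest, in the order named. The call of Adamts13 was also lost without tumour 2 or tumour 3, and that of Adam9 without tumour 1 or tumour 2. Of 16 genes of cathepsins and cystatins, the proteases of the lysosome and their inhibitors, 5 rose and 0 fell (31.2% called), with a median of 0.43. Ctss rose by 2.98 (0.00460), Cstb by 1.33 (0.0227), Ctsz by 1.25 (0.00422) and Ctsd by 1.22 (0.00614), and the fifth was Ctsc (2.17, 0.0242). Leaving out either control ended each of these calls (adjusted p up to 0.0741, 0.188, 0.0804, 0.0955 and 0.212, in the order named), and Cstb was also lost without tumour 2.

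Of 29 measured genes of matrix proteins, many of them substrates, 5 rose and 0 fell (17.2% called), with a median of 0.44. Col4a1 rose by 1.68 (limma adjusted p = 0.00252), Col4a2 by 1.59 (0.00456), Lama5 by 1.61 (0.00440) and Lamc1 by 1.74 (0.00578), and the fifth, outside the naming rule, was Nid1 (3.78, 0.00664). These 5 encode proteins of the basement membrane, the sheet under epithelia and vessels, but other genes of that structure in the same list did not pass: Col18a1 (−0.87, 0.0596), Nid2 (0.68, 0.106), Hspg2 (0.68, 0.299), Lama2 (0.30, 0.385) and Lamb1 (0.42, 0.444). Eln, the gene of elastin, which Mmp12 cuts, was at −0.06 (0.816), and Col1a1 and Col3a1, genes of the fibrillar collagens that Mmp13 and Mmp14 cut, were at 1.21 (0.0905) and 0.81 (0.288); these 3 were chosen for their relation to the enzymes. Without either control all 5 calls were lost, at adjusted p of up to 0.103.

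Of 23 genes of cytokines and transcription factors known to induce metalloproteinase genes, 6 rose and 0 fell (26.1% called), with a median of 0.48. Jun, an AP-1 subunit, had control levels of 6.40 and 6.45 (log2) against 8.34, 8.46 and 8.23 in tumours 1 to 3, a difference of 1.92 (limma adjusted p = 0.00169). Ets2 rose by 2.08 (0.00921), Tgfb1 by 1.66 (0.0158) and Il1b, which encodes interleukin 1 beta, by 1.49 (0.0269). Fos (−0.22, 0.600) and Tnf (−0.01, 0.987) did not pass. The call of Jun held without either control, while those of Ets2, Tgfb1 and Il1b did not (highest adjusted p 0.118, 0.160 and 0.224), and that of Il1b was also lost without tumour 2. Over these 6 lists together, 29 genes were called, of which 3 (Anxa2, Cd44 and Jun) were called both without control 1 and without control 2.

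In whole tissue, more cells of a type and more RNA per cell cannot be told apart. Of 20 macrophage markers, 10 rose and 1 fell (55% called), with a median of 1.51 and per-tumour medians of 1.95, 1.05 and 1.85 in tumours 1, 2 and 3. The mean log2 level of the list was 6.18 and 6.44 in the controls and 8.01, 7.24 and 7.52 in the tumours. Mpeg1 rose by 2.47 (limma adjusted p = 0.00298), Cd68 by 3.02 (0.00406) and Lyz2 by 2.26 (0.00716), and Cd163, a scavenger receptor of resident macrophages, stood at −2.20 (0.00563); each was lost without control 1 or control 2 (highest adjusted p 0.0668, 0.0688, 0.0957 and 0.0847). The markers did not share an order of tumours. Of the 10 that rose, 8 were highest in tumour 3 and 2 in tumour 1, and over all genes 628 of the 1117 that rose were highest in tumour 3. Gpnmb, for example, was at 5.08 and 5.24 in the controls and 7.51, 7.70 and 8.62 in the tumours, and Cd68 was at 6.53 and 6.97 in the controls and 9.60, 9.45 and 10.26 in the tumours. The resident Kupffer cell marker Vsig4, which did not pass, was at 7.07 and 7.83 in the controls and 9.84, 7.34 and 4.55 in the tumours, so tumour 3 lay below both controls and tumour 1 above. The part of macrophage content in the levels of Mmp12 and Mmp13 was not tested.

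The mean levels of the marker lists of stellate cells and fibroblasts and of endothelium were graded across the tumours. Not every gene of these lists followed that order. The stellate cell and fibroblast list had 1 of 17 risen (Acta2, 2.44, limma adjusted p = 0.0102) and 0 fallen. This was 5.88% called, against 10.6% over all genes. The list's mean log2 level was 6.06 and 6.09 on the control arrays, 6.81 in tumour 1, 6.31 in tumour 2 and 5.64 in tumour 3. Thy1, by contrast, was highest in tumour 3, at 6.32, 6.27 and 6.79 in tumours 1 to 3. Reln, made by stellate cells, was at 8.47 and 8.30 in the controls and 7.97, 7.33 and 4.93 in the tumours. In tumour 1 it lay below both controls, where the list mean lay above them. The endothelial list had 2 of 11 risen (Emcn by 2.11 and Plvap by 1.58, adjusted p = 0.0269 and 0.0400), 0 fallen, and mean log2 levels of 7.18 and 7.30 in the controls and 8.41, 7.61 and 6.53 in the tumours. Both risen genes went against that order: they were highest in tumour 2. In tumour 3 they lay above both controls, at 7.49 for Emcn and 7.33 for Plvap. Clec4g, at the list's lower end, was at 4.67 in tumour 3, against 9.13 and 9.53 in the controls. In the means of both lists tumour 1 was highest and tumour 3 lowest, as was so for Mmp2 and Mmp7. This order was not particular to them. The means of the hepatocyte markers (12.32, 11.74 and 11.25 in tumours 1 to 3) and of the matrix protein genes (8.10, 7.67 and 7.16) had it too. So did the mean of the other inhibitors and partners (8.60, 8.45 and 8.32). The part of stellate cells, fibroblasts and endothelium in the levels of Mmp2 and Mmp7 was not tested. With either control left out, the 3 marker calls ended (adjusted p up to 0.130, 0.209 and 0.263), those of Emcn and Plvap also without tumour 1 and that of Plvap without tumour 2.

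Few genes of the other marker lists were called. Over all genes, 10.6% were called and 5023 of 19938 had an unadjusted p under 0.05. Of 12 neutrophil markers 0 were called, with 1 at an unadjusted p under 0.05, and their mean log2 level was 4.73 and 4.76 in the controls and between 4.70 and 5.12 in the tumours. Neutrophils are a known source of Mmp9, which did not pass the test. Of 10 cholangiocyte markers 0 were called (5 at an unadjusted p under 0.05), with a mean level of 5.42 and 5.39 in the controls and between 5.83 and 5.94 in the tumours. Of 10 lymphocyte markers 0 were called (2 at an unadjusted p under 0.05), with means of 4.65 and 4.47 in the controls and 4.83, 4.77 and 5.37 in the tumours. Of 12 hepatocyte markers 1 fell (Ttr, limma adjusted p = 0.0463) and 4 had an unadjusted p under 0.05. The call of Ttr was lost without control 1, control 2, tumour 1 or tumour 2. For 7 of the 12 every tumour lay below both controls, against 4603 of 19938 genes over all, and for 0 above both. The list's mean log2 level was 12.62 for control 1 and 12.61 for control 2. For tumours 1 to 3 it was 12.32, 11.74 and 11.25. In tumour 3, Cyp2e1 (−8.92 from its control mean) and Pck1 (−3.46) weighed most on that mean. The list's median difference from the control means was −0.21, −0.22 and −0.38 in tumours 1 to 3. Apoa2 (−0.45, adjusted p = 0.145) and Pck1 (−2.41, 0.191) were among the 7 but did not pass. Alb, the gene of albumin, was not among them and lay between 12.36 and 12.85 on all 5 arrays. Cyp2e1, a drug-metabolising enzyme of hepatocytes, had control levels of 13.06 and 12.98. It was lowest in tumour 3, at 4.10, against 11.49 in tumour 1 and 8.87 in tumour 2. Its difference of −4.87 did not pass the test (limma adjusted p = 0.197).

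**Figure D4:**
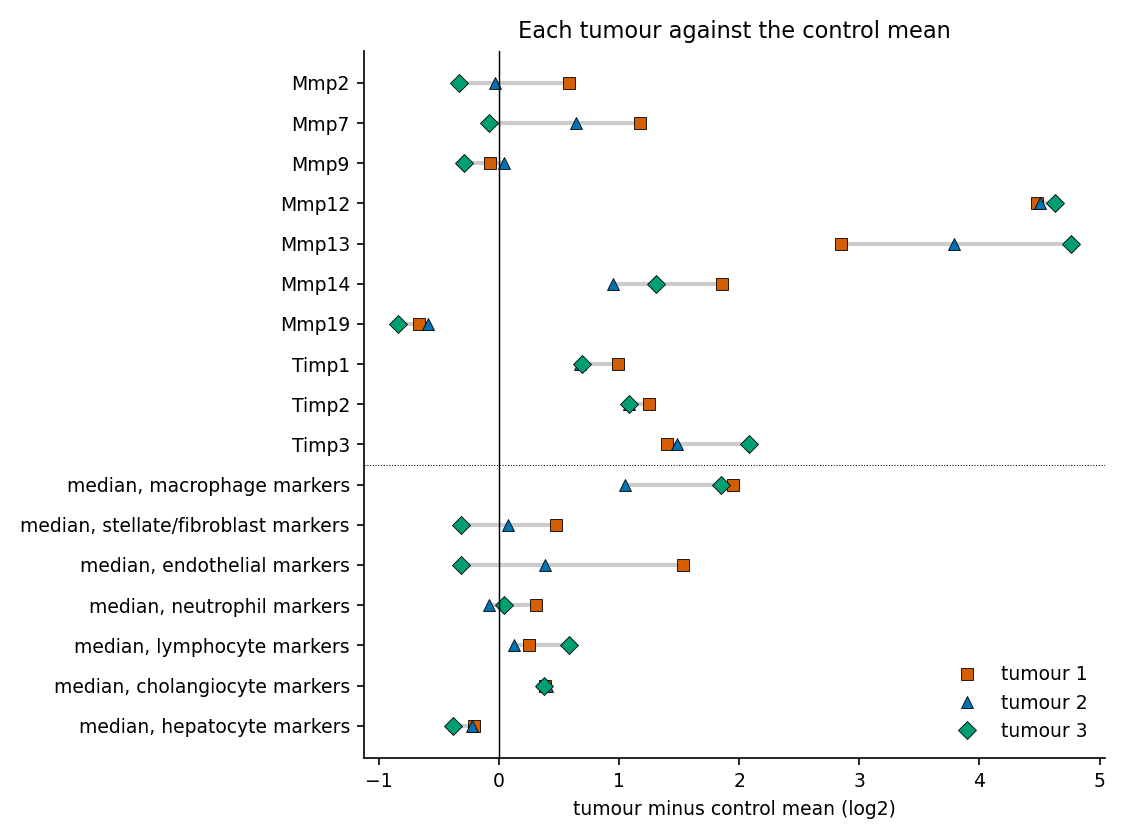
Difference of each tumour from the control mean on the log2 scale (horizontal axis) for the 10 genes and, below the dotted line, the median over the members of 7 cell type marker lists, with a symbol for each tumour. Tumour 3 is the highest for Mmp13 and Timp3, and Mmp12 is much the same in all 3 tumours. Tumour 3 is the lowest for Mmp2, Mmp7, Mmp9, Mmp19 and the stellate cell, endothelial and hepatocyte lists, and barely so for the cholangiocyte list.

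Genes with the most similar profile were sought for the 3 members with the largest differences. The measure was the root mean square distance between the 5 log2 values, each less the gene's control mean. This distance depends on the size of the tumour minus control difference as well as on the order of the tumours. Gene models without a proper name were skipped. For Mmp12 these were Sprr1a (distance 0.13), Mfge8 (0.17) and Abcc4 (0.26). Mfge8, which encodes a protein that bridges phagocytes and dying cells, stood at 6.57 and 6.41 in the controls and 10.76, 10.86 and 10.81 in the tumours. For Mmp13 they were the class II antigen presentation genes H2-Aa (0.22) and H2-Eb1 (0.26) and the Fc receptor gene Fcgr4 (0.31). H2-Aa had 6.87 and 6.85 in the controls and 9.91, 10.86 and 11.22 in the tumours. Tumour 3 was the highest there too, as for 628 of the 1117 genes that rose. For Timp3 they were Rbl1 (0.07), Tgfb1 (0.09) and Oasl2 (0.10), and Tgfb1 had 7.14 and 7.33 in the controls and 8.71, 8.59 and 9.37 in the tumours. These likenesses are over 5 arrays in 2 groups and are a description.

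Hdac3 itself, which checks the labels, was at 8.21 and 8.37 in the controls and between 6.57 and 6.78 in the tumours (difference −1.62, limma adjusted p = 0.00298). Its call was lost without control 1 (0.0505) or control 2 (0.0663). Over all genes 2106 were called, but 129 without control 1, 108 without control 2 and 1266 without tumour 2. With so few arrays, the smallest two-sided p that an exact permutation test can give is 0.1, so the calls depend on limma's pooling of variance over genes.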

How the data were processed

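The authors deposited log2 expression values for 5 arrays (2 control livers, 3 tumours). The submitters' processing notes name GCOS and RMA without versions. As generally used, RMA corrects background, makes the arrays' distributions alike and combines the probes of a set, and it can shrink differences of dim genes. No genome build was needed for the values. Columns of other samples numbered 0. The number of arrays limits the precision.

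Of 28853 probe sets, 21789 had 1 gene symbol in the platform's probe table (1621 several, 5443 none). A gene was represented by its probe set of highest mean, giving 19938 genes with no filter. Tumour minus control was fitted with limma 3.58.1 in R 4.3.3 (lmFit, eBayes, 3 residual degrees of freedom, no covariate), two-sided, with Benjamini-Hochberg adjustment over all genes and a threshold of 0.05. Tables were joined with Python 3.11.15 and pandas 2.3.3, and figures drawn with matplotlib 3.10.9. Motifs were searched in the 250 bases before RefSeq starts (GRCm38.p6).

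The members, lists and tests were chosen with earlier results of these data known. Named are all 10 members, up to 4 genes of each list with the smallest p, the 3 nearest profiles of 3 members, Hdac3, marker genes at a list's ends, and genes said to lie outside this rule. Among the latter, Plat, Plaur, Tfpi2, Reck, Pzp, A2m, Ctsc, Nid1 and Gpnmb were chosen after values were seen or for their role. The same holds for other basement membrane genes, Fos, Tnf, Eln, Col1a1, Col3a1, Vsig4, Reln, Alb and the neighbours of the cluster. Alternatives were 2 scalings, a filter on dim genes, probe set means, a variance trend, a replicate block and leaving out each array.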

Additional observations from a re-analysis of the deposited data

How the results depend on the processing

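The number of members called was 7 under both scalings, with probe set means and with the variance trend. With the dimmest 40% of genes left out, 8 members were fitted and 6 called, and the median difference of the members moved from 0.96 to 1.26, since Mmp7 and Timp1 were no longer in the fit. With 1 array left out, the members called ranged from 1 to 8, the called genes of the 6 related lists from 3 to 46, and the genes called over all genes from 108 to 2719. Fits with a single control take its spread from that of the tumours. The difference of Mmp2 ranged from −0.18 without tumour 1, where its sign turned, to 0.28 without tumour 3. Setting group means under the lower quartile to that quartile could change no member's difference, since no member's mean lay under it. The replicate numbers in the labels were not shown to pair the arrays: the deviations of same-numbered arrays from their group means correlated at 0.004 and −0.01 across genes. With the numbers as a replicate block, which leaves tumour 3 without a partner, 6 members were called, with Mmp7 called (0.91) and Mmp19 and Timp1 not (adjusted p = 0.0526 and 0.0572), and 2376 genes were called in all. Arrays shifted to a common median moved the median of all genes to −0.07, risen genes then numbering 1001 and fallen genes 1125, against 1117 and 989 before. Cell counts and the position of the Hdac3 probes were not analysed here.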
